A study of Homo sapiens with 9 samples.

Results

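The 7 mitochondrially encoded subunits of complex I, MT-ND1, MT-ND2, MT-ND3, MT-ND4L, MT-ND4, MT-ND5 and MT-ND6, were followed in ribosome profiling of Huh-7 cells, which derive from a human liver cancer. They were chosen by symbol. Their log2 ratios in these same data had by then been seen to be below 0 with PF8503 and above 0 with PF846. The ratios are therefore described here, and nothing is read from the tests reported below for these members. They are 7 of 9221 transcripts listed in at least 1 of the 2 tables. Ribosome-protected fragments were sequenced from cells given 1.5 μM PF8503, 1.5 μM PF846 or 0.5% DMSO as vehicle for 1 hr, with 3 biological replicates each, and no other genotype or treatment entered. PF8503 and PF846 are related small molecules that bind the exit tunnel of the cytosolic ribosome and stall the synthesis of selected proteins. The same vehicle libraries stand behind both comparisons, so the ratios with the compounds are not independent.

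The Huh-7 label held up against marker genes. All 11 hepatocyte markers were listed, and AFP and ALB had the highest and second highest means with vehicle of the 9157 transcripts in the PF8503 table. None of 5 leukocyte and 3 erythroid markers was listed, while PECAM1 was the single endothelial marker of 4 and ACTA2, in the PF846 table alone, the single fibroblast marker of 5.

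Complex I, NADH:ubiquinone oxidoreductase, passes electrons from NADH to ubiquinone and pumps protons across the inner mitochondrial membrane. Its membrane arm is built around the 7 subunits encoded in mitochondrial DNA, which are made inside the organelle by mitochondrial ribosomes, while all other subunits are made by cytosolic ribosomes and imported. The counts therefore come from a different ribosome than nearly all the rest of the data. Cycloheximide, which was in the rinse and the lysis buffer, arrests cytosolic ribosomes and not mitochondrial ones.

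The genes lie on the mitochondrial chromosome (GRCh38, GENCODE annotation). Their starts are shown because they differ in start codon and because the first codons were left out of the counts. Each line gives the first 30 bases of the coding sequence, 5′ to 3′ in the direction of translation, with the start codon in capitals.
MT-ND1: ATAcccatggccaacctcctactcctcatt
MT-ND2: ATTaatcccctggcccaacccgtcatctac
MT-ND3: ATAaacttcgccttaattttaataatcaac
MT-ND4L: ATGcccctcatttacataaatattatacta
MT-ND4: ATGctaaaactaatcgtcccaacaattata
MT-ND5: ATAaccatgcacactactataaccacccta
MT-ND6: ATGatgtatgctttgtttctgttgagtgtg
MT-ND1 (ENSG00000198888) spans chrM:3307-4262, MT-ND2 (ENSG00000198763) chrM:4470-5511 and MT-ND3 (ENSG00000198840) chrM:10059-10404. MT-ND4L (ENSG00000212907) spans chrM:10470-10766, MT-ND4 (ENSG00000198886) chrM:10760-12137 and MT-ND5 (ENSG00000198786) chrM:12337-14148, all on the plus strand. MT-ND6 (ENSG00000198695), chrM:14149-14673, is the only member on the minus strand, and 35.6% of its coding bases are G, against 9.50% to 12.1% in the others. Each gene is a single exon that is coding throughout. MT-ND1, MT-ND2, MT-ND3 and MT-ND4 end 1 or 2 bases into their stop codon, which is completed by the poly(A) tail.

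MT-ND4L and MT-ND4 share 1 messenger RNA and overlap by 7 bases, shown in capitals below, in different reading frames (plus strand, chrM:10749-10778).
MT-ND4L end and MT-ND4 start: aacctactccaATGCTAAaactaatcgtcc
The first and last codons of a coding sequence were not counted, so these 7 bases gave no reads to either gene if the study's default region was used.

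The tables hold the authors' group means of normalized read counts. The whole reads of the 3 libraries behind each mean were recovered from its digits, as described with the processing, and libraries are numbered by their total reads, since the replicate number each has in the labels is unknown. The study's scripts number replicates otherwise than the labels, and whether the libraries in the tables are the labelled ones is therefore uncertain. Reads on transcripts with a single solution numbered 9719403, 8050760 and 6027367 in vehicle libraries 1 to 3, 9342667, 7915640 and 5295059 with PF8503, and 12389508, 5226330 and 4010869 with PF846. Values per library are normalized reads, that is reads divided by a size factor set over all 9 libraries. All 7 members had a single solution, and all were counted over the same region in both tables.

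Footprints on the members made up 0.0410% of all normalized counts with vehicle, 0.0368% with PF8503 and 0.0484% with PF846 in the authors' means. Summed over the members, normalized reads were 4028, 3383 and 4686 in the 3 vehicle libraries, 3965, 3496 and 3324 with PF8503, and 5204, 3913 and 5128 with PF846. PF8503 library 3 lay below the lowest vehicle library, PF846 libraries 1 and 3 lay above the highest, and the other 3 compound libraries lay among the vehicle libraries. In these bulk lysates without matched RNA-seq, fewer cells of a type, less messenger RNA per cell and fewer ribosomes per messenger RNA cannot be told apart.

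Per codon, the members differed in level, if the study's default region was used for each. In the authors' vehicle mean, MT-ND5 had 3.92 normalized counts per counted codon, MT-ND4L 3.11, MT-ND4 1.97, MT-ND6 1.44, MT-ND1 0.991, MT-ND3 0.926 and MT-ND2 0.925, so the highest was 4.24 times the lowest. Over the vehicle libraries MT-ND5 ranged from 3.11 to 4.20 normalized reads per codon and MT-ND4L from 2.45 to 3.23, so these neighbours overlapped. MT-ND4 lay between 1.60 and 2.08, below every value of MT-ND4L, and touched the range of MT-ND6, 1.16 to 1.64. MT-ND1, from 0.642 to 1.15, MT-ND3, from 0.764 to 0.996, and MT-ND2, from 0.657 to 1.15, could not be put in order. Within each of the 9 libraries the order MT-ND5, MT-ND4L, MT-ND4, MT-ND6 held.

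Among 38 complex I subunits counted over the same region in both tables, the members sat at the low end. The 31 nuclear-encoded subunits ranged from 1.20 normalized counts per codon for NDUFA9 to 30.9 for NDUFS5, with a median of 7.56, against a median of 1.44 for the members. MT-ND5 stood 27th and MT-ND2 last. Codon numbers come from the canonical GENCODE transcripts, which may differ from those the study aligned to. This order also assumes the study's default region for every subunit, which was not tested.

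**Figure D1:**
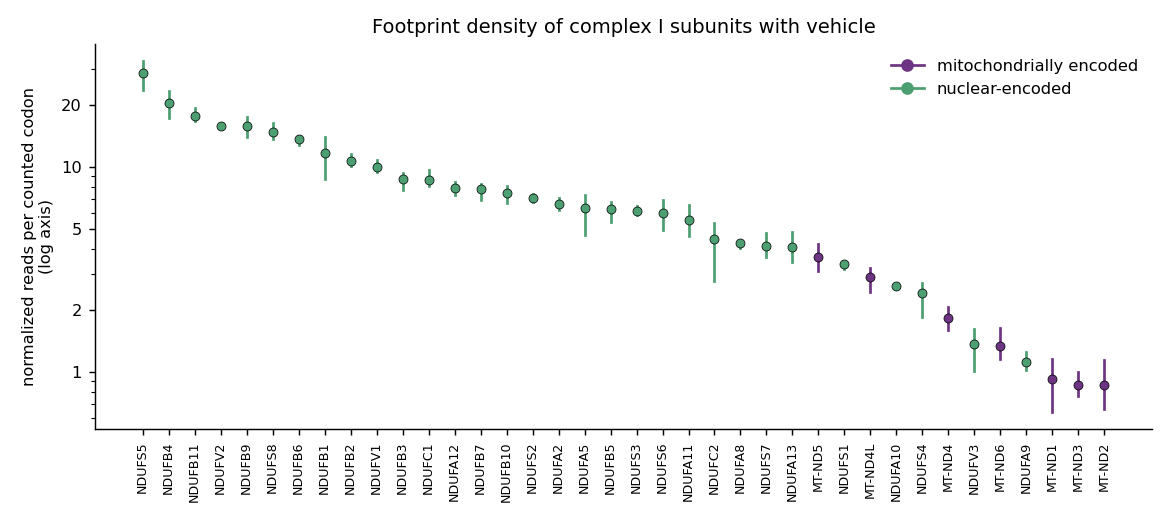
Normalized reads per counted codon (log axis) with vehicle for 38 complex I subunits, ordered by the authors' vehicle mean. Points are means and lines the range over 3 vehicle libraries, with mitochondrially encoded subunits in purple and nuclear-encoded ones in green. MT-ND1, MT-ND2 and MT-ND3 stand last, with ranges that overlap each other. Codon numbers assume the study's default region.

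With PF8503 the authors' means were lower than with vehicle for all 7 members, as the choice of members fixes. The log2 ratios had a median of -0.17, from -0.52 for MT-ND3 to -0.09 for MT-ND5, against a median of 0.01 over all transcripts of the table. MT-ND1, MT-ND2 and MT-ND3, 3 of 7, lay at or below -0.25, where 4.23% of all transcripts did. MT-ND2, at -0.35, was the nearest inside this fold and MT-ND4L, at -0.17, the nearest outside. Leaving out 1 library moved the count to 6 without vehicle library 2 and to 5 without PF8503 library 1. It was 2 without vehicle library 3 or PF8503 library 3, and over all omissions the median lay between -0.30 and -0.09. The share of all transcripts past the fold was not computed for these omissions.

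With PF846 the 7 means were higher than with vehicle, again as chosen. The median log2 ratio was 0.22, from 0.15 for MT-ND6 to 0.40 for MT-ND1, against a table median of 0.00. MT-ND1, MT-ND2 and MT-ND3 lay at or above 0.25, as did 1.66% of all transcripts. MT-ND3, at 0.31, was just inside and MT-ND4, at 0.22, just outside. The count was 0 without vehicle library 2 or PF846 library 3. It was 6 without vehicle library 3 or PF846 library 2, and over all omissions the median lay between 0.13 and 0.39. Here too, the share of all transcripts was not computed for the omissions. Leaving out 1 library moved the log2 ratio of MT-ND1 between 0.19 (without vehicle library 2) and 0.63 (without PF846 library 2), and that of MT-ND4 between 0.11 (without PF846 library 1) and 0.39 (without PF846 library 2). Without vehicle libraries 2 and 3 in turn, MT-ND5 was at 0.11 and 0.32 and MT-ND6 at 0.06 and 0.32.

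The compounds were given at the same dose and time, so their means can be set side by side. The log2 ratio with PF8503 minus that with PF846 had a median of -0.38 over the members and ranged from -0.92 for MT-ND1 to -0.30 for MT-ND5. All 7 differences were at or below -0.25, against 2.59% of the 8641 transcripts counted over the same region. The count was 5 without PF8503 library 2 (MT-ND4L and MT-ND6 at -0.23 and -0.25, above the threshold) and 5 without PF846 library 1 (MT-ND4L and MT-ND5 at -0.15 and -0.23). No share of all transcripts was computed for these omissions. The vehicle libraries, shared by the tables, cancel in the difference between the compounds.

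**Figure D2:**
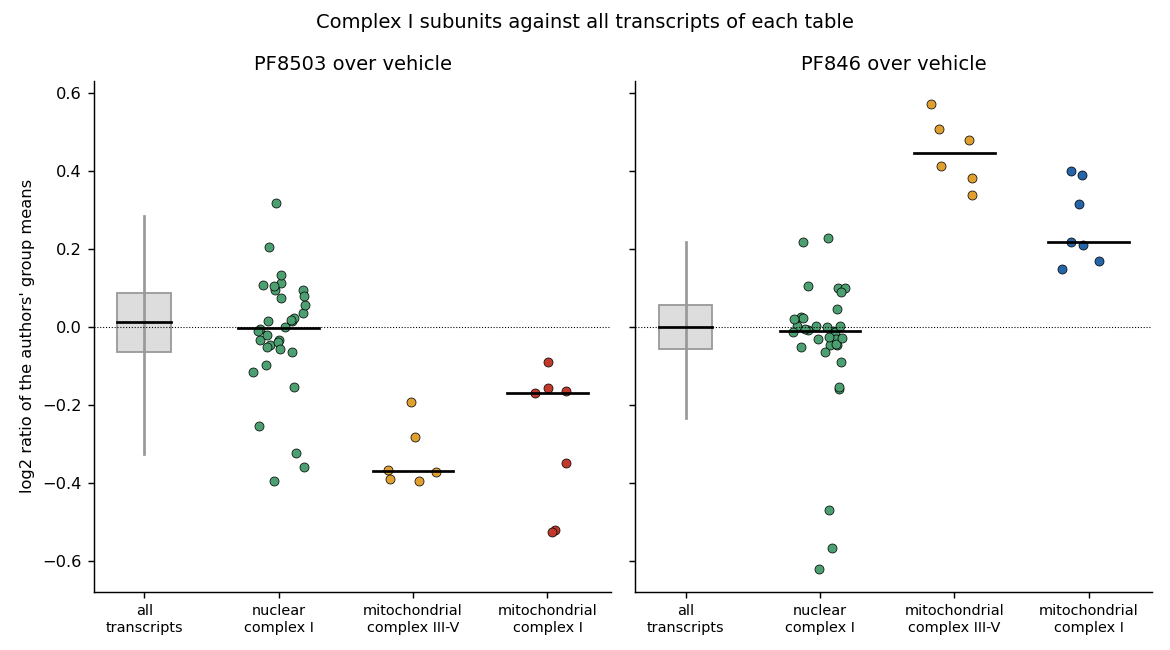
Log2 ratio of the authors' group means, PF8503 over vehicle (left) and PF846 over vehicle (right). The grey box spans the quartiles and the grey line the middle 95% of all transcripts, points are single transcripts, scattered sideways only to keep them apart, and black bars are medians. Members (red, blue) have medians of -0.17 and 0.22, mitochondrially encoded subunits of complexes III to V (orange) -0.37 and 0.45, and nuclear-encoded complex I subunits (green) lie around 0.

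MT-ND1 lies at the base of the membrane arm and helps to form the ubiquinone site. The authors' mean was 296 normalized counts with vehicle and 206 with PF8503 in 1 table, and 271 with vehicle and 358 with PF846 in the other. By library, MT-ND1 had 293, 192 and 345 normalized reads with vehicle, 254, 206 and 117 with PF8503, and 416, 240 and 439 with PF846. PF8503 library 3 was far below all others. Vehicle library 2 was lower than PF8503 libraries 1 and 2, and PF846 library 2 was lower than PF8503 library 1 and vehicle libraries 1 and 3. The groups therefore overlapped in every comparison. These values rest on 87 to 713 reads per library. The log2 ratio with PF8503, -0.52, was -0.27 without PF8503 library 3, -0.33 without vehicle library 3 and -0.77 without PF8503 library 1.

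MT-ND2 is an antiporter-like subunit of the proton-pumping arm. Its normalized reads were 257, 216 and 378 with vehicle, 242, 294 and 131 with PF8503, and 375, 223 and 515 with PF846. As for MT-ND1, PF8503 library 3 was the lowest and PF846 library 3 the highest of the 9, and the groups overlapped. The log2 ratio of -0.35 with PF8503 was -0.08 without PF8503 library 3, -0.09 without vehicle library 3 and -0.61 without PF8503 library 2. With PF846 it was 0.39, and ranged from 0.08 without PF846 library 3 to 0.65 without vehicle library 3 or PF846 library 2.

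MT-ND3, a small subunit near the ubiquinone site, had the lowest counts, 40 to 155 reads per library. Normalized reads were 80.2, 73.3 and 95.6 with vehicle, 64.7, 54.2 and 54.0 with PF8503, and 90.5, 78.7 and 141 with PF846. All 3 PF8503 libraries lay below all vehicle and all PF846 libraries, whereas PF846 overlapped with vehicle. Leaving out each library in turn kept the log2 ratio with PF8503 between -0.62 and -0.41, while that with PF846 ranged from 0.03, without PF846 library 3, to 0.48.

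MT-ND4L and MT-ND4, neighbouring subunits of the membrane arm, moved less. MT-ND4L had 258, 196 and 242 normalized reads with vehicle, 241, 174 and 204 with PF8503, and 325, 222 and 236 with PF846. MT-ND4, like MT-ND2 an antiporter-like subunit, had 805, 705 and 913 with vehicle, 805, 681 and 673 with PF8503, and 1078, 710 and 1033 with PF846. For both genes the groups overlapped in every comparison, and PF846 library 1 was the highest of the 9. The log2 ratio of MT-ND4L with PF8503, -0.17, ranged from -0.06 without PF8503 library 2 to -0.30 without PF8503 library 1. With PF846 it was 0.17, and ranged from -0.02 without PF846 library 1 to 0.27 without PF846 library 2. MT-ND4 with PF8503, at -0.16, ranged from -0.07 without vehicle library 3 to -0.25 without vehicle library 2 or PF8503 library 1.

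MT-ND5, the antiporter-like subunit at the far end of the membrane arm, carried the most reads, 1384 to 4621 per library. It had 2145, 1819 and 2457 normalized reads with vehicle, 2168, 1915 and 1945 with PF8503, and 2699, 2199 and 2529 with PF846. The PF8503 libraries all lay inside the vehicle range, and below all PF846 libraries. Its log2 ratio with PF8503, -0.09, was 0.02 without vehicle library 3 and -0.20 without vehicle library 2.

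MT-ND6, which lies beside the proton-pumping subunits in the membrane, is the minus-strand member. It had 190, 182 and 256 normalized reads with vehicle, 191, 171 and 200 with PF8503, and 220, 240 and 236 with PF846. Vehicle library 3 was the highest of the 9, so vehicle overlapped with both compounds, whereas the PF8503 and PF846 libraries did not overlap. Its log2 ratio with PF8503, -0.16, was 0.01 without vehicle library 3 and -0.25 without vehicle library 2.

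Counted over the members, the PF8503 libraries lay wholly below the vehicle libraries for 1 of 7, MT-ND3, where 3.30% of 8504 transcripts did. The PF846 libraries lay wholly above vehicle for 0 of 7, against 2.23% of transcripts. PF8503 lay wholly below PF846 for 3 of 7, MT-ND3, MT-ND5 and MT-ND6, against 3.13%.

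A limma fit over all 8504 transcripts, with Benjamini-Hochberg adjustment at 0.05, called 0 of 7 members in each comparison. It called 0.118% of transcripts for PF8503 against vehicle, 0.0235% for PF846 against vehicle and 0.0235% for PF8503 against PF846. At an unadjusted p under 0.05 the members numbered 1 (MT-ND3), 0 and 6 (MT-ND4L being the exception), where 2.69%, 1.00% and 2.32% of transcripts passed. Since these contrasts chose the members, nothing is read from the counts.

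**Figure D3:**
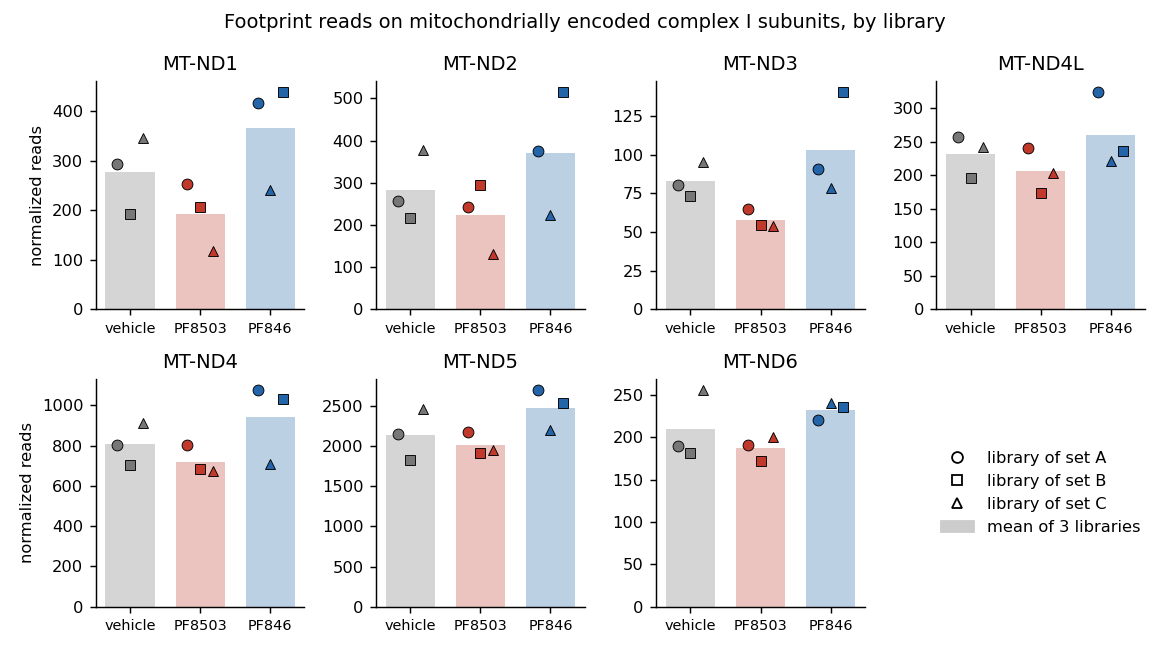
Normalized reads on each member (linear axes from 0) in the 9 libraries. Bars are means of 3 libraries, points single libraries, and point shapes mark the sets A, B and C described in the text. MT-ND3 is the only member whose PF8503 points all lie below the vehicle points. PF8503 library 3 (the red triangle) is the lowest point for MT-ND1 and MT-ND2 and, by a small margin, for MT-ND3 and MT-ND4.

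The recovered libraries fell into 3 sets of 1 vehicle, 1 PF8503 and 1 PF846 library whose deviations from their group means went together across transcripts. Over 7687 transcripts, without the 13 mitochondrially encoded ones, the correlations of these deviations were at least 0.40 within a set and at most 0.21 between sets. Set A joined the libraries numbered 1, set B vehicle 2, PF8503 2 and PF846 3, and set C vehicle 3, PF8503 3 and PF846 2. The sets are a hint from the data, and the labels name none. Each condition was run on sequencing lanes of its own per the labels, and the effect of lane cannot be told apart from that of treatment.

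Within sets, PF8503 was not lower than vehicle throughout. The median log2 ratio of the members was -0.09 in set A, -0.05 in set B and -0.44 in set C, with 4, 4 and 7 of 7 members below 0. MT-ND1 had log2 ratios of -0.21, 0.10 and -1.55 in sets A, B and C, and MT-ND2 of -0.09, 0.45 and -1.53. MT-ND3, at -0.31, -0.43 and -0.82, and MT-ND4L, at -0.10, -0.17 and -0.25, were the 2 members lower in all 3 sets, where 14.9% of transcripts were.

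For PF846 the sets went opposite ways. All 7 members were higher than vehicle in set A, with a median log2 ratio of 0.33, and in set B, with 0.55, and all 7 were lower in set C, with -0.28. MT-ND2 spanned the widest range, from 1.26 in set B to -0.76 in set C. No member was higher in all 3 sets, against 11.9% of transcripts. Medians over all transcripts were within 0.01 of 0 in each set.

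Between the compounds, PF8503 was lower than PF846 for all 7 members in all 3 sets, with median log2 ratios of -0.43, -0.60 and -0.27. Over all transcripts 12.8% were lower in all 3 sets. Members chosen for ratios below 0 with PF8503 and above 0 with PF846 favour this direction, so the count of 7 is a description and no support for it. MT-ND1 had -0.72, -1.09 and -1.03 in sets A, B and C, and MT-ND2 -0.63, -0.81 and -0.77. MT-ND5, the most deeply counted, had -0.32, -0.40 and -0.18. MT-ND4 was nearest to 0, at -0.08 in set C. With the sets as a block in the limma fit, 0, 0 and 1 of 7 members were called in the 3 comparisons, the last being MT-ND1 between the compounds, against 0.917%, 0.176% and 0.529% of transcripts. As in the fit without the block, these contrasts chose the members and nothing is read from the call.

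**Figure D4:**
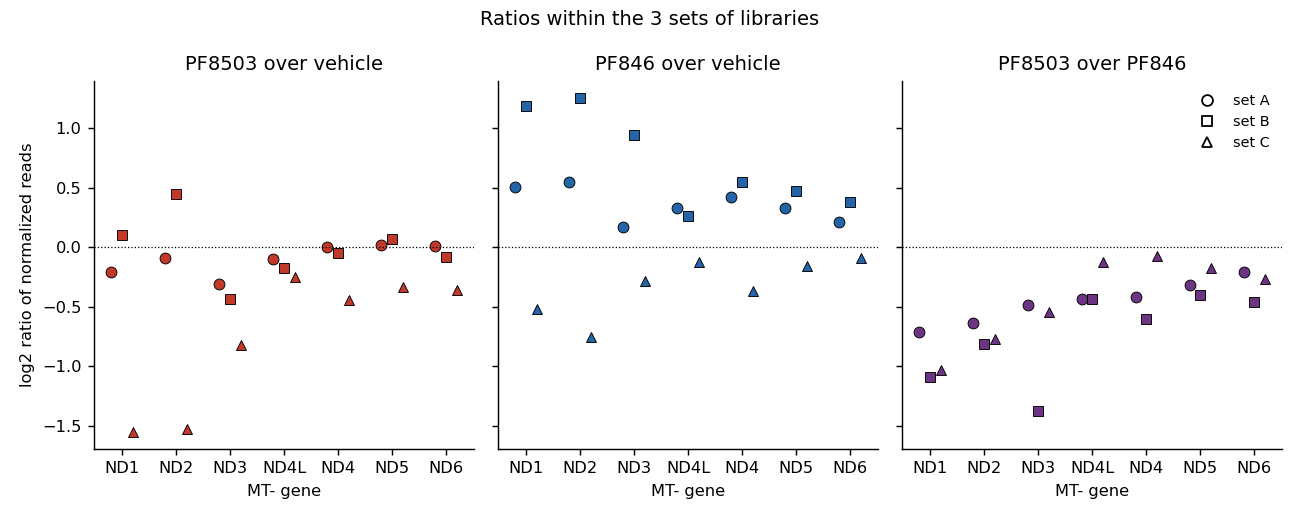
Log2 ratio of normalized reads for each member within sets A (circles), B (squares) and C (triangles), for PF8503 over vehicle, PF846 over vehicle and PF8503 over PF846. Points in the right panel all lie below 0, while those in the left and middle panels lie on both sides of it.

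The members differed in how much replicate libraries varied. The SD between libraries of a group, pooled over the 3 groups with 6 degrees of freedom, was 0.55 for MT-ND2 and 0.50 for MT-ND1 on the log2 scale, higher than in 99.8% and 99.4% of transcripts. It was 0.29 for MT-ND3, 0.25 for MT-ND4L, 0.23 for MT-ND4, 0.17 for MT-ND6 and 0.16 for MT-ND5, the last being close to the median of 0.16 over all transcripts. Among transcripts within a factor of 2 of the same level, the SD of MT-ND1 exceeded 99.5% and that of MT-ND6 49.9%. The 6 other mitochondrially encoded transcripts, for subunits of complexes III, IV and V, had SDs from 0.41 (MT-ATP6) to 0.68 (MT-ATP8), with which MT-ND1 and MT-ND2 overlapped and the other 5 members did not.

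**Figure D5:**
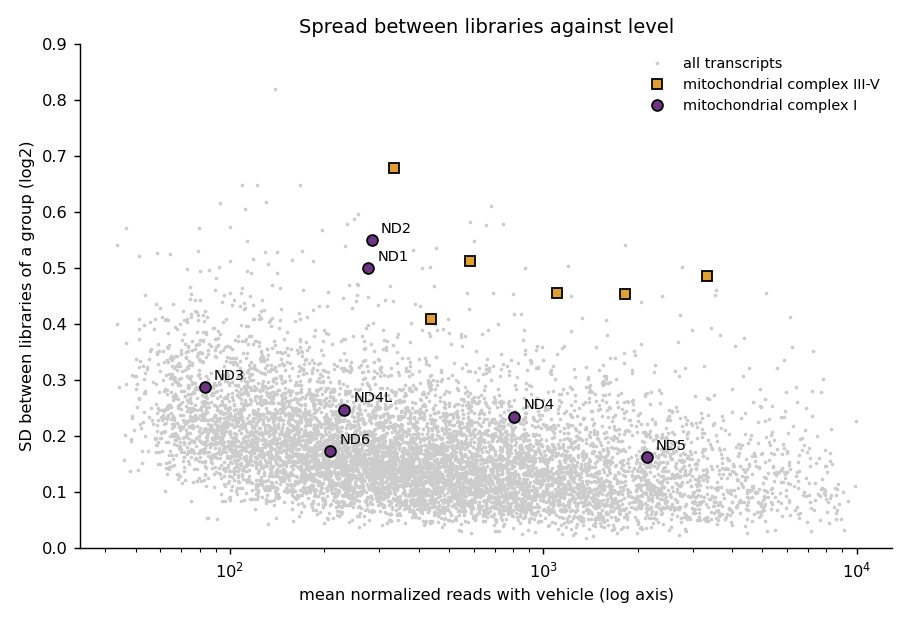
SD between libraries of a group on the log2 scale against mean normalized reads with vehicle (log axis), for 8504 transcripts (grey), the members (purple circles) and the 6 other mitochondrially encoded transcripts (orange squares). MT-ND1 and MT-ND2 lie among the orange squares near the top, and MT-ND5 and MT-ND6 within the grey cloud.

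Set against MT-ND5 in the same library, which removes the size factor, the per-codon level of MT-ND1 was 0.268, 0.207 and 0.274 of that of MT-ND5 with vehicle, 0.229, 0.211 and 0.118 with PF8503, and 0.302, 0.214 and 0.339 with PF846. MT-ND2 had 0.213, 0.211 and 0.274 with vehicle, 0.199, 0.274 and 0.120 with PF8503, and 0.248, 0.181 and 0.363 with PF846. MT-ND3 had 0.228, 0.246 and 0.237 with vehicle, 0.182, 0.173 and 0.169 with PF8503, and 0.204, 0.218 and 0.339 with PF846. For each of these genes the lowest of the 9 was PF8503 library 3 and the highest PF846 library 3. This did not hold for MT-ND4L, MT-ND4 or MT-ND6. MT-ND4 stayed between 0.429 and 0.543 of MT-ND5 in all 9 libraries.

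The members took 35.4%, 35.7% and 33.2% of the reads on the 13 mitochondrially encoded transcripts in the vehicle libraries. With PF8503 they took 36.4%, 32.2% and 47.4%, and with PF846 31.5%, 36.0% and 28.3%. PF8503 library 3 was the highest, with an exact 95% interval of 46.0% to 48.8%, and PF846 library 3 the lowest, with 27.4% to 29.2%. These intervals cover counting error only, not the spread between libraries, and PCR copies were not marked.

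The 6 other mitochondrially encoded transcripts had medians farther from 0, with ranges that overlapped those of the members. With PF8503 their median log2 ratio was -0.37, from -0.40 to -0.19 (MT-ATP6), and with PF846 it was 0.45, from 0.34 to 0.57 (MT-ATP6). MT-CO1 and MT-CO2 were at -0.37 and -0.37 with PF8503 and at 0.48 and 0.51 with PF846, MT-CO3 at -0.28 and 0.38, MT-CYB at -0.40 and 0.41, and MT-ATP8 at -0.39 and 0.34. Within sets A, B and C their median log2 ratio with PF8503 was -0.07, 0.27 and -1.29, with 5, 0 and 6 of 6 below 0, and with PF846 it was 0.65, 1.07 and -0.43. Between the compounds it was -0.72, -0.81 and -0.88. With the sets as a block, MT-CYB, MT-CO1 and MT-CO2 were called between the compounds, and nothing is read from these calls either.

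The nuclear-encoded subunits of complex I had medians near 0, and their difference from the members was not tested. Of 7 core subunits, the median log2 ratio was 0.04 with PF8503 and -0.01 with PF846, and of 27 accessory subunits it was -0.01 and -0.01. With PF8503, 4 of these 34 lay at or below -0.25 and 1 at or above 0.25, against 4.23% and 3.79% of the table. With PF846, 3 lay at or below -0.25 and 0 at or above 0.25, against 2.13% and 1.66%. In the limma fit 0 of 31 were called in each comparison, with 1, 0 and 1 at an unadjusted p under 0.05 for PF8503, PF846 and the compounds against each other, where 2.69%, 1.00% and 2.32% of transcripts passed.

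NDUFV1, which holds the NADH site, and NDUFV2, its iron-sulphur partner, had the highest vehicle means of the core subunits. NDUFV1 had log2 ratios of 0.10 with PF8503 and 0.02 with PF846. NDUFV2 went from 3957 to 3166 normalized counts with PF8503, a log2 ratio of -0.32, and was at -0.03 with PF846. It was called for PF8503 and between the compounds with the sets as a block. NDUFC2, an accessory subunit of the membrane arm, had -0.36 and -0.47, and was called for PF846 in that fit. NDUFS5 and NDUFB9, accessory subunits with the highest vehicle means, were at -0.01 and 0.02 with PF8503 and at 0.05 and -0.09 with PF846. NDUFB8 and NDUFAB1 had -0.62 and -0.57 with PF846 but were counted over different regions in the 2 tables.

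The 15 complex I assembly factors listed had median log2 ratios of -0.05 with PF8503 and -0.06 with PF846, and none passed 0.25 in either direction. NDUFAF3 was at -0.07 and -0.10 and FOXRED1 at 0.06 and 0.05. The 13 mitochondrial translation factors had medians of 0.00 and 0.00, with 0 past the fold. TUFM, the mitochondrial elongation factor Tu, was at 0.09 and 0.06, and OXA1L, the insertase for these subunits, at -0.04 and 0.00.

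Of 23 genes for mitochondrial transcription and RNA stability, 1 passed the fold, TFB1M, at -0.30 with PF8503 and -0.06 with PF846. Of all transcripts, 4.23% lay at or below -0.25 with PF8503. LRPPRC, which stabilizes mitochondrial messenger RNAs, was at -0.03 and 0.06, and HSD17B10, a subunit of mitochondrial RNase P, at 0.01 and 0.01. The 46 proteins of the large mitochondrial ribosomal subunit had medians of -0.01 and -0.01, and the 29 of the small subunit -0.01 and -0.01. MRPL45, a large-subunit protein at the membrane, was at -0.16 and -0.72, and MRPS27, of the small subunit, at -0.47 and 0.05. The proteins with the highest vehicle means stayed nearer to 0, MRPL11 at 0.05 and 0.11, MRPL37 at 0.07 and 0.05, DAP3 at -0.12 and -0.11, and MRPS35 at -0.16 and -0.06. MRPL36, MRPL20, MRPS12 and MRPS31 had log2 ratios of -0.54, -0.39, -0.67 and -0.67 with PF8503, but were counted over different regions in the 2 tables. These 5 lists, from the assembly factors to the small ribosomal subunit, held 126 genes for each compound. With PF8503, 6 lay at or below -0.25 and 0 at or above 0.25, against 4.23% and 3.79% of all transcripts. With PF846, 1 lay at or below -0.25 and 1 at or above 0.25, against 2.13% and 1.66%. In the limma fit 0 genes of these 5 lists were called in any comparison. At an unadjusted p under 0.05 these 5 lists together had 2 of 122 genes for PF8503, 1 for PF846 and 2 between the compounds, against 2.69%, 1.00% and 2.32% of all transcripts. With the sets as a block, MRPL45 was called for PF846, and MRPS27 for PF8503 and between the compounds.

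Of 7785 transcripts outside the mitochondrial genome with a mean of at least 100, 10, or 0.128%, were at least as low with PF8503 as MT-ND5 and at least as high with PF846 as MT-ND6. These limits are the extremes of members chosen on the same ratios, so the share is a description. By distance from the members' median in the pair of log2 ratios, the nearest were PAPD4 (-0.20 and 0.22), SLC5A12 (-0.15 and 0.18), RASSF4 (-0.14 and 0.26), HDAC4 (-0.11 and 0.20) and C11orf57 (-0.21 and 0.17). The vehicle means of these 5, from 116 (C11orf57) to 158 (SLC5A12) normalized counts, lay near the minimum of 100. Those of the members ran from 88.9 (MT-ND3) to 2291 (MT-ND5). This likeness is over 2 ratios that share their vehicle libraries.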

How the data were processed

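Ribosome-protected fragments of Huh-7 cells were sequenced for 3 conditions with 3 libraries each. Per the methods, the authors removed adapters (FASTX toolkit) and ribosomal RNA, aligned reads with Bowtie to canonical coding transcripts (GRCh38), kept reads with a single position, and counted them 3′ of DMax, the codon of the largest difference in cumulative reads, or otherwise from codon 10 to 10 codons before the end. The methods state a filter of more than 30 counts. Nuclear copies of mitochondrial DNA outside these transcripts would not be seen by the single-position filter. Each value the authors deposited, a signal on the scale of reads, is the mean of 3 libraries after division by their DESeq size factors. Versions are not given in the sources used here. Columns with the authors' fold changes and p-values were not used.

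A group mean is a sum of whole reads times 3 unknown weights, and its digits fixed both. A single solution was found for 98.5% of transcripts in the table for PF8503 and 98.7% in that for PF846. Size factors computed anew from these reads returned the weights to within 2.4e-04 on the natural log scale. The lowest recovered count in a library was 30. Of 8641 transcripts counted over the same region for both compounds (vehicle means in a constant ratio to within 0.002 on the log2 scale), 8504 had a single solution for both. Vehicle reads recovered separately for each compound were the same for 8504 of these 8504. Their selection for matching vehicle means largely fixed this agreement, so it is a limited check of the recovery. Single-solution transcripts held 71.8% and 74.3% of normalized counts, and very abundant ones were left out of library values. Library values were scaled by medians of ratios over the 8504 transcripts. Limma 3.58.1 (R 4.3.3) with trend was fitted to log2(normalized reads + 0.5) with Benjamini-Hochberg adjustment. The test was kept to the unit of the deposited values, a signal, and no count model was fitted to the recovered reads. The recovery and the fit were tested on simulated data. Medians of log2 ratios, counts past 0.25, levels per codon and distances are descriptions. Spread is the SD over recovered libraries, and which replicate number each has is unknown. Using single libraries was decided after seeing the files.

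The members and all gene lists were chosen with earlier results of these data known. Genes named are the members, the 6 other mitochondrially encoded transcripts, from each list the 2 with the highest vehicle mean and up to 3 with the largest ratio past 0.25, and the 5 transcripts nearest to the members. Alternatives changed centring, scaling, pseudocount, fold, minimum mean, counted codons, libraries and block.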

Additional observations from a re-analysis of the deposited data

How the results depend on the processing

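The median log2 ratios of the members kept their sign under all alternatives, which choosing members with these signs known favours. The medians moved by less than 1 SD between libraries under every alternative but leaving out a library. Single sets of libraries were not among the alternatives. Within sets A, B and C the PF846 median was 0.33, 0.55 and -0.28, so its sign changed in set C. Kept to MT-ND5, the only member with a mean of at least 1000, the PF8503 value was -0.089, against -0.17. That for PF846 was 0.21, against 0.22, and the value for PF8503 minus PF846 was -0.30, against -0.38. Leaving out each library in turn gave -0.30 to -0.088 for PF8503 over vehicle, 0.13 to 0.39 for PF846 over vehicle, and -0.55 to -0.34 for PF8503 minus PF846. The PF8503 value was -0.28 without vehicle library 2 and -0.30 without PF8503 library 1, against -0.17, and the PF846 value was 0.13 without vehicle library 2, 0.15 without PF846 library 3 and 0.39 without PF846 library 2, against 0.22. The number of members past the fold, 3 for each compound, ranged over these omissions from 2 to 6 for PF8503 and from 0 to 6 for PF846. It was 6 without vehicle library 2 and 5 without PF8503 library 1 for PF8503. For PF846 it was 0 without vehicle library 2 or PF846 library 3, and 6 without vehicle library 3 or PF846 library 2. At a fold of 0.1 it was 6 and 7, and at 0.5 it was 2 and 0. The shares of all transcripts past 0.1 and 0.5 were not computed, but shares past single transcripts bound them. For PF8503 the share past 0.1 lay between 9.47%, the share past MT-ND6 at -0.16, and 19.4%, that past MT-ND5 at -0.089. For PF846 it was at least 6.48%, the share past MT-ND6 at 0.15, and no member gives an upper bound. Past 0.5 the share lay between 1.00% (MT-ND1 at -0.52) and 1.67% (MT-CYB at -0.40) for PF8503. For PF846 it lay between 0.0792% (MT-CO2 at 0.51) and 0.0905% (MT-CO1 at 0.48). Among members with a mean of at least 1000, which is MT-ND5 alone, the number past the fold of the main count was 0 and 0. Of all transcripts with such a mean, 2.57% passed that fold for PF8503 and 0.597% for PF846. Counted over all codons, the highest member was 4.91 times the lowest. Without a minimum mean, 2 of the 5 transcripts most like the members stayed.

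The replicate numbers of the labels could not be tied to the recovered libraries. With the sets of libraries taken from the data as a replicate block, the medians were -0.17, 0.22 and -0.37, and limma called 78, 15 and 45 transcripts in place of 10, 2 and 2 for PF8503, PF846 and PF8503 against PF846. These fits, like the omissions, were chosen after seeing the data. MT-ND3 had the fewest reads of the members, 40 to 155 per library.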
